A study of Mus musculus with 2 samples.

Results

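The genes described here release arachidonic acid from membranes and carry it into and out of the prostaglandins: 5 phospholipase A2 genes (Pla2g4c, Pla2g4a, Pla2g2a, Pla2g6 and Pla2g12a), the cyclooxygenase genes Ptgs1 and Ptgs2, the prostaglandin E synthase gene Ptges, the prostaglandin-degrading gene Hpgd and the receptor gene Ptger4. These 10 genes of 45706 in the files were chosen by name with earlier fasted and fed values of the same libraries in view, and were found by symbol. Their fasted-to-fed ratios are therefore a description and support nothing beyond themselves. RNA was sequenced from GFP-high intestinal stem cells of 4-month-old mice of the line Lgr5-EGFP-IRES-creERT2, which carries a green fluorescent protein and a tamoxifen-inducible Cre recombinase at the Lgr5 locus. The fed group, on standard chow without restriction, and the fasted group each gave 1 library, and both carry the allele. In mice of this kind the reporter can be silent in part of the crypts. The labels do not give the duration of the fast, the number or sex of the mice, the inbred background or the stretch of intestine.

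In an arachidonate cascade, a phospholipase A2 cuts the fatty acid from the middle position of a membrane phospholipid. Cyclooxygenases then turn it into prostaglandin H2, terminal synthases make prostaglandin E2 and its relatives, and these act through G protein-coupled receptors until 15-hydroxyprostaglandin dehydrogenase inactivates them. In the intestine, prostaglandin E2 made largely outside the epithelium is known to act on crypt cells, with the receptor EP4 as a main epithelial route.

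The fed library held 6985316 counts and the fasted library 5020056, so 1 count equals 0.143 and 0.199 counts per 1000000 (CPM). With 1 library a group, no spread between mice can be estimated, no test was made and no p-value is given. Each log2 ratio is fasted over fed after scaling by median-of-ratios factors, and the range after it is an exact 95% interval for counting error alone (Clopper-Pearson). Genes that averaged 1 CPM or more, with 20 or more counts in total, are called measured, and a measured gene is called higher or lower when it is at least 2-fold apart with an interval that leaves out equality. Markers of the sorted population were abundant. The 10 stem cell markers, Lgr5 and Olfm4 among them, summed to 18308 CPM fed and 11419 CPM fasted. Olfm4 alone held 14373 and 8257 CPM of these sums. Of the 10 markers 0 were higher and 1 was lower, Slc14a1, and their median log2 ratio was -0.31. In bulk RNA, fewer cells of a type and less RNA per cell cannot be told apart.

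Pla2g4c was lower in the fasted library and Hpgd was higher, while the other 5 measured members lay within 2-fold of their fed level. Ptgs1, Ptgs2 and Ptges had at most 3 counts in either library and were not measured. Among all 12026 measured genes, 1.91% were lower and 2.51% were higher, and nothing is read from the members' 1 lower and 1 higher against those shares, since the members were chosen with the contrast known. The 7 measured members had a median log2 ratio of -0.20, and all measured genes had -0.02. 5 of the 7 ratios were negative and 2 were positive.

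**Figure D1:**
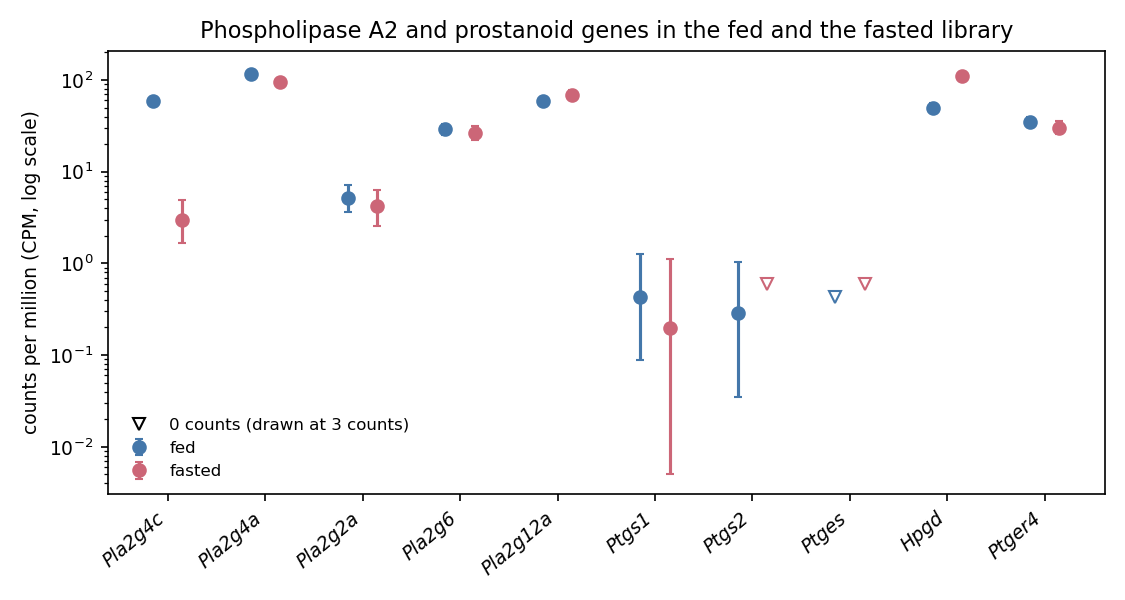
Level of each of the 10 members in the fed (blue) and fasted (red) library, in CPM on a log axis, with exact 95% Poisson intervals of counting error; open triangles mark 0 counts and are drawn at 3 counts. Pla2g4c goes from 58.7 to 2.99 CPM, Hpgd from 50.1 to 110.4 CPM, and Ptgs1, Ptgs2 and Ptges lie near or below 1 CPM.

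Pla2g4c encodes cytosolic phospholipase A2 gamma, a group IV enzyme that, unlike its relative Pla2g4a, needs no calcium for membrane binding. The gene lies on chromosome 7 (13324655 to 13360672, plus strand, GRCm38). The fed cells gave 410 counts (58.7 CPM), and the fasted cells gave 15 (2.99 CPM). The log2 ratio was -4.27 (-5.13 to -3.54), a level 19.4-fold lower in the fasted library. The fasted reads are few but well above the floor of 3 counts (0.598 CPM in that library), so the gene was low there and not absent. Of the 12026 measured genes, 4 had a ratio at or below this value, Pla2g4c included.

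The low level was not shared by the measured genes next to it. Lig1, the DNA ligase I gene 13222 bases before Pla2g4c, had 1513 and 895 counts, a log2 ratio of -0.26 (-0.38 to -0.14). Zswim9, 45934 bases before it, had 74 and 59 counts, a log2 ratio of 0.17. On the other side the nearest measured genes were Selenow, a selenoprotein gene, at 0.50 and the nucleolar gene Nop53 at 0.44, 2556536 and 2575511 bases away. The GENCODE M21 annotation places an unprocessed pseudogene, Pla2g4c-ps, on the same strand 439 bases after the end of Pla2g4c (13361111 to 13386695). It was not analysed here, and reads common to both copies cannot be assigned to either from these counts. The 2 other annotated genes inside Pla2g4c share no exon base with it and had at most 1 count in either library.

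The measured protein-coding genes with a log2 ratio nearest to that of Pla2g4c over the 2 libraries were Scd2, Sh3bgr, Nox1, Hoxb7 and Grk4. Genes with provisional Gm or Rik symbols were left out of this ranking. Scd2, a fatty acid desaturase gene, had 1187 and 56 counts and differed from Pla2g4c by 0.37 on the log2 scale. Nox1, an NADPH oxidase gene, had 110 and 6 counts and differed by 0.58. Sh3bgr (19 and 1 counts), Hoxb7 (31 and 2) and Grk4 (26 and 2) differed by 0.52, 0.82 and 1.07, and their own ratios have intervals several log2 units wide.

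Genes that mark position along the intestine were looked at in 2 lists chosen after values were seen. The colon and posterior transcription factor genes Hoxb6, Hoxb7, Hoxb8 and Hoxb9 summed to 29.6 CPM fed and 7.37 CPM fasted. Of these, 4 of 4 were lower, with a median log2 ratio of -2.03. The 4 genes lie in 1 stretch of chromosome 11 (96271457 to 96301569), so their calls may not be independent. Their fasted counts were only 11, 2, 12 and 12. From this list 1 further gene was left out after its values were seen. The proximal factors Gata4, Pdx1 and Onecut2 summed to 467 and 492 CPM, with 0 of 3 called and ratios of 0.21, 0.46 and -0.03. Their part in the Pla2g4c value was not tested.

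The windows around the starts of Pla2g4c and Hpgd are printed because these members lay past 2-fold, in opposite directions. They come from RefSeq (GRCm38.p6), run from 250 bases before to 50 bases after the annotated start, and are given 5′ to 3′ on the plus strand, at chr7:13325417-13325716 and chr8:56294302-56294601. Capitals mark matches on either strand to 5 motifs: the core promoter element TATAAA, the promoter box CCAAT, the SP factor box GGGCGG, the repeat unit AGGTCA bound by many nuclear receptors, and the forkhead factor site GTAAACA. No 2 of the marked matches overlap.
Pla2g4c: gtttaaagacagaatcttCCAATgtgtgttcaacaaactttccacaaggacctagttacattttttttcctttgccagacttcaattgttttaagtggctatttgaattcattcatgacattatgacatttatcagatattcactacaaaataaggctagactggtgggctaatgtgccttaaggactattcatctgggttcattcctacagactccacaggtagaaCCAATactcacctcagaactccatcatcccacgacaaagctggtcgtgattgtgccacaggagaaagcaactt
Hpgd: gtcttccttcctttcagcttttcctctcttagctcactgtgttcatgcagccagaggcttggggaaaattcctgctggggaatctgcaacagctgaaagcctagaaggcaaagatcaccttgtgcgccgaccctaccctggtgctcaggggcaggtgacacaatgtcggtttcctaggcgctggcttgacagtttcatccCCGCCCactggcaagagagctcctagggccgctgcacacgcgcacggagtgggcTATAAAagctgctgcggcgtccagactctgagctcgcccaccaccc
The Pla2g4c window held 2 matches to CCAAT and none to the other motifs, and the Hpgd window held 1 match each to TATAAA and GGGCGG. Of all 32851 windows in the table, 37.4% held CCAAT, 35.7% GGGCGG, 13.6% TATAAA, 16.3% AGGTCA and 3.65% GTAAACA, so each motif found is a common one. The TATAAA of Hpgd begins 29 bases before the GENCODE start of the gene, which lies 33 bases after the RefSeq start. For Pla2g4c RefSeq lists 2 starts; the one shown, the more upstream, lies 1012 bases after the GENCODE start. Windows were found for 9 of the 10 members, with AGGTCA in 1 (Pla2g4a) and GTAAACA in 0. These are matches of letters, and no binding was measured.

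Pla2g4a, the calcium-dependent cytosolic phospholipase A2 alpha with a preference for arachidonate, had 821 and 477 counts (118 and 95.02 CPM). It is on chromosome 1 (149829618 to 149961290, minus strand). The log2 ratio of -0.29 (-0.45 to -0.12) left out equality by counting error but stayed far inside 2-fold. The balance of the group IV genes differed between the libraries. On a length-scaled level (transcripts per 1000000, TPM), Pla2g4a went from 62.4 to 48.0 and Pla2g4c from 53.2 to 2.57. Pla2g4c made up 45.5% of the summed group IV level when fed and 4.94% when fasted, and the sum itself went from 117 to 52.1 TPM. The remaining group IV genes added little: Pla2g4b had 15 and 14 counts, and Pla2g4d, Pla2g4e and Pla2g4f had 0 in both libraries.

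**Figure D2:**
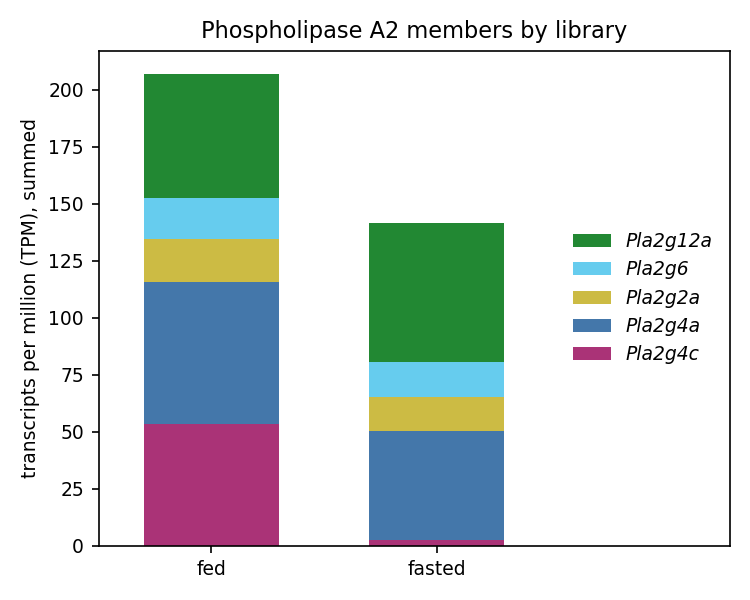
Summed length-scaled level (TPM) of the 5 phospholipase A2 members in the fed and the fasted library, 1 library each and no error bars. The sum goes from 207 to 141 TPM, and the Pla2g4c segment shrinks from 53.2 to 2.57 TPM while the other 4 segments stay within 2-fold. Other phospholipase A2 genes are not in this sum. The list of secreted phospholipases A2 and their receptor, which holds 2 of the members, goes from 190 to 231 TPM.

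Pla2g2a encodes a secreted group IIA phospholipase A2 known from Paneth cell granules. Its copy in the reference genome, which comes from a C57BL/6 mouse, is annotated as a polymorphic pseudogene (chromosome 4, 138831857 to 138835186, plus strand). The reading frame of the pseudogene model is printed because it shows what the counted transcript could encode if these mice carry that allele. Capitals mark the start codon, bases 166 to 169 of the frame, and the stop codon.
Pla2g2a: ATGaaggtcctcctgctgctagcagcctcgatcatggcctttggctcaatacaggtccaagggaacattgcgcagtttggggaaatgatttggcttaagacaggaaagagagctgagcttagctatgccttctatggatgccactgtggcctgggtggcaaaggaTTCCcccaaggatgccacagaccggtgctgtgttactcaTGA
This frame stops after 68 codons. A second model in the same annotation skips the 4 capital bases in the middle (chr4:138833013-138833016) and reads on for 145 codons. The skip belongs to that model of the reference sequence and does not give the sequence of another allele. The counts do not show which allele the mice carried. Pla2g2a had 36 fed and 21 fasted counts (5.15 and 4.18 CPM), and its log2 ratio of -0.28 has a wide interval (-1.13 to 0.54), so that no difference was detectable at this depth. The 10 Paneth cell markers summed to 1164 and 1004 CPM in the same libraries, with 1 higher (Mmp7) and 1 lower (Defa26). Their median log2 ratio was -0.38, and their part in the Pla2g2a value was not tested. Pla2g2a lies within the span of Pla2g5 on the opposite strand, with 0 shared exon bases.

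The other phospholipase members lay well within 2-fold. Pla2g6, the calcium-independent group VI enzyme with roles in membrane remodelling (chromosome 15, 79286228 to 79328390, minus strand), had 204 and 132 counts, 29.2 and 26.3 CPM, and a log2 ratio of -0.13 (-0.46 to 0.19). Pla2g12a, an atypical secreted phospholipase A2 (chromosome 3, 129878606 to 129895825, plus strand), had 410 and 348 counts, 58.7 and 69.3 CPM, and a log2 ratio of 0.26 (0.05 to 0.47). It thus had the same fed count as Pla2g4c, and 348 against 15 in the fasted library.

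The cyclooxygenase step was near the limit of counting in both libraries. Ptgs1, the constitutive cyclooxygenase (chromosome 2, 36230426 to 36252272), had 3 counts fed and 1 fasted. Ptgs2, the inducible cyclooxygenase (chromosome 1, 150100031 to 150108227), had 2 fed and 0 fasted. Ptges, the inducible microsomal prostaglandin E synthase (chromosome 2, 30889471 to 30929863), had 0 in both, under the floor of 3 counts, which equals 0.429 CPM fed and 0.598 CPM fasted. No ratio is given for these 3 genes, and whether fasting altered them was not detectable at this depth. Ptgs1 also shares 148 exon bases with an uncharacterised annotation on the other strand, which had 0 and 1 counts.

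Cells known to express cyclooxygenases were themselves thinly represented. The 9 fibroblast and smooth muscle markers summed to 7 counts fed and 2 fasted, with 5 of them, Col3a1, Dcn, Lum, Pdgfra and Des, at 0 in both. The 7 mast cell markers were at 0 in both libraries. The 6 endothelium markers summed to 30 counts fed and 16 fasted, with Vwf at 26 and 13. Of 11 leukocyte markers, 5 were at 0 in both, Ptprc had 1 and 0 counts, and the list summed to 13.5 and 7.57 CPM, most of it Itgam and Cd68, the latter called lower among 2 measured. The 11 markers reported for tuft cells, an epithelial type known for Ptgs1 and Hpgds, summed to 17.9 CPM fed and 13.5 CPM fasted, and of the 4 that were measured 0 were higher and 0 were lower. Hpgds, the hematopoietic prostaglandin D synthase gene, had 7 and 9 counts. The part of these cell types in the cyclooxygenase counts was not tested.

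Of the 12 listed cyclooxygenase and terminal synthase genes, 5 were measured, all of them synthases. The prostaglandin D, prostacyclin and thromboxane synthase genes Ptgds (8 and 0 counts), Ptgis (0 and 2) and Tbxas1 (4 and 1) were not, nor was Hpgds. Ptges2 and Ptges3, synthase genes of broad expression, had 413 and 342, and 355 and 215 counts, with log2 ratios of 0.23 (0.01 to 0.44) and -0.23 (-0.48 to 0.02). Among the prostanoid synthase genes the highest length-scaled levels, averaged over both libraries, belonged to Fam213b, which encodes prostamide and prostaglandin F synthase (84.2 and 122 TPM), and to the carbonyl reductase gene Cbr1 (85.3 and 108 TPM), at log2 ratios of 0.63 and 0.44. None of the 5 measured synthase genes passed 2-fold in either direction.

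Hpgd, which encodes 15-hydroxyprostaglandin dehydrogenase, was the member called higher. The gene lies on chromosome 8 (56294585 to 56321043, plus strand). It had 350 counts fed and 554 fasted, or 50.1 and 110 CPM, a log2 ratio of 1.16 (0.96 to 1.36) and a level 2.24-fold higher. The counting interval reaches just below 2-fold, and 237 measured genes had a ratio at least as high, Hpgd included. Its nearest measured neighbours Spcs3, Vegfc, Cep44 and Fbxo8 had ratios of 0.25, -0.36, 0.03 and 0.23. Hpgd is known to be higher in differentiated enterocytes than in crypts. In the fasted library the 12 absorptive enterocyte markers summed to 3059 CPM against 1297 CPM in the fed library, with 9 higher and 0 lower, and none was at 0 in either. The 8 goblet cell markers, of the mucus-secreting lineage, summed to 1244 CPM fasted and 637 CPM fed, with 3 higher (Tff3, Fcgbp and Zg16, at log2 ratios of 1.59, 1.36 and 1.63), 0 lower and none at 0. The 8 enteroendocrine markers summed to 27.3 CPM fasted and 28.9 CPM fed, with 0 of 5 measured called. The part of these cell types in the Hpgd value was not tested.

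The other genes of prostaglandin transport and breakdown lay within 2-fold. Ptgr1, which encodes a reductase for the 15-keto products, lay at a log2 ratio of 0.25 (0.11 to 0.38) from 943 and 792 counts, and Ptgr2, of the same step, had -0.03 (-0.21 to 0.15). The prostaglandin uptake transporter gene Slco2a1 had 93 and 78 counts at 0.24 (-0.21 to 0.69). The exporter gene Abcc4 had 91 and 35 counts at -0.88 (-1.49 to -0.30), short of 2-fold.

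Ptger4 encodes the prostaglandin E2 receptor EP4 (chromosome 15, 5206661 to 5244187, minus strand). It had 246 and 152 counts, 35.2 and 30.3 CPM, and a log2 ratio of -0.20 (-0.50 to 0.10). Its exons share 82 bases with Ttc33 and 1015 bases with the pseudogene Gm15937, both on the opposite strand; Ttc33 had 177 and 153 counts and Gm15937 had 0 in both. Ptger1, the EP1 receptor gene, stood at a like level with 235 and 153 counts, and a ratio of -0.12 (-0.42 to 0.18). Ptger2 and Ptger3 had 0 counts in both libraries. Of the 10 genes in the receptor list, which includes the hydroxyeicosatetraenoic acid receptor gene Gpr31b, 6 were at 0 in both. The prostaglandin D2 receptor genes Ptgdr (2 and 1 counts) and Ptgdr2 (2 and 4) were not measured, and Ptger4 and Ptger1 were.

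**Figure D3:**
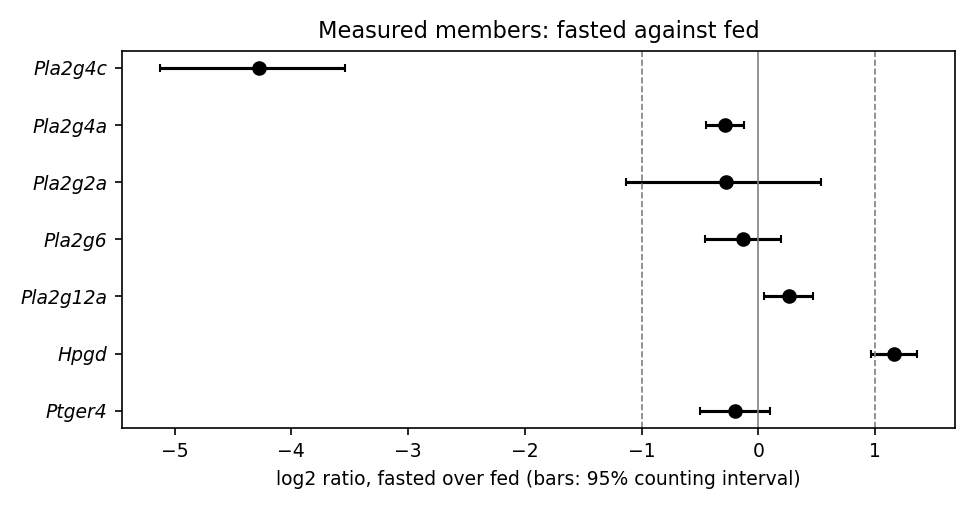
Log2 ratio, fasted over fed, of the 7 measured members, with exact 95% counting intervals; dashed lines mark 2-fold. Pla2g4c lies at -4.27 and Hpgd at 1.16, and the other 5 lie between -0.29 and 0.26.

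On the length-scaled level, which allows genes to be compared, Hpgd was highest in both libraries (101 and 212 TPM). In the fed library Pla2g4a (62.4), Pla2g12a (54.1) and Pla2g4c (53.2 TPM) came next, and neighbours in that order had overlapping counting intervals. Pla2g2a (18.9), Pla2g6 (18.2) and Ptger4 (18.0 TPM) formed a lower set, again with overlapping intervals. In the fasted library the order after Hpgd was Pla2g12a (60.7), Pla2g4a (48.0), then Pla2g6 (15.6), Ptger4 (14.7) and Pla2g2a (14.5), whose intervals overlapped, and Pla2g4c (2.57 TPM), whose interval lay below theirs. The intervals cover counting error only.

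**Figure D4:**
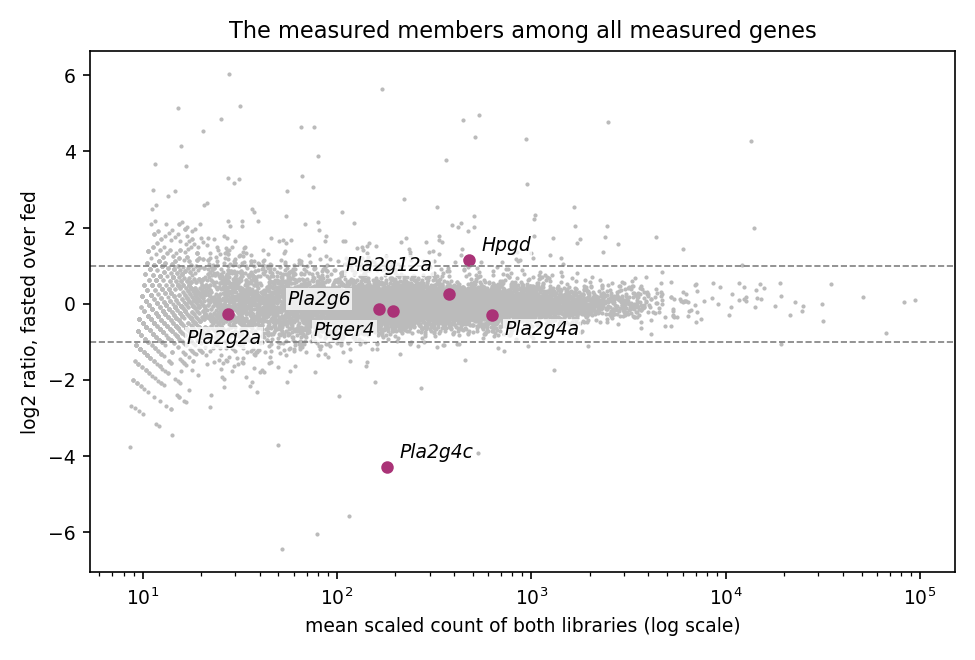
Log2 ratio, fasted over fed, against the mean scaled count of both libraries (log axis) for the 12025 measured genes with a count in both; the 7 measured members are coloured and named, and dashed lines mark 2-fold. Pla2g4c lies at -4.27, apart from the main cloud, Hpgd at 1.16, and the others within the cloud.

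Beyond the members, 107 further genes of the pathway were taken from 11 lists, of which 63 were measured. Of these 4 were higher (6.35%, beside 2.51% of all measured genes), 1 was lower (1.59%, beside 1.91%) and 58 were neither. Their median log2 ratio was 0.09, beside -0.02 for all measured genes. Within each list, genes were ranked by the mean length-scaled level of both libraries. The higher genes were Mgll, Abhd6, Cyp2c66 and Cyp4a10, and the lower gene was Lpcat2.

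Other routes to and from free arachidonate thus held the remaining calls. Mgll, whose monoacylglycerol lipase frees arachidonate from 2-arachidonoylglycerol, had 8 counts fed and 282 fasted, a log2 ratio of 5.64 (4.64 to 6.86). Abhd6, a further hydrolase of that lipid, had 85 and 124 counts at 1.04 (0.63 to 1.46). The genes that make 2-arachidonoylglycerol, Dagla and Daglb, had -0.28 (-0.66 to 0.10) and -0.33 (-0.71 to 0.05). Plcb3, a phospholipase C gene, and Abhd12 had the highest length-scaled levels of that list and lay at -0.14 and -0.01.

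In the reacylation list, Lpcat2, whose product makes platelet-activating factor and returns fatty acids to lysophospholipids, went from 29 to 3 counts, at a log2 ratio of -2.78 (-5.13 to -1.09). Lpcat3, the main intestinal enzyme for placing polyunsaturated chains into phosphatidylcholine, had 799 and 973 counts at 0.78 (0.65 to 0.92). Acsl3, an acyl-CoA synthetase gene, had 672 and 840 counts at 0.82 (0.67 to 0.97), whereas the arachidonate-preferring Acsl4 had 49 and 35 at 0.01. Lclat1, the second highest of the list by mean length-scaled level, lay at 0.05; it was above Acsl3 in the fed library (103 and 74.97 TPM) and below it in the fasted (100.2 and 124 TPM).

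Among the secreted phospholipases, Pla2g5 had the highest length-scaled level (75.3 and 92.7 TPM) with 447 and 416 counts at a ratio of 0.39 (0.20 to 0.59). Pla2g12b, a catalytically inactive relative with a role in lipoprotein secretion, had 70 and 97 counts at 0.97 (0.51 to 1.43). In the calcium-independent, lysosomal and platelet-activating factor list, 0 of 10 other measured genes passed 2-fold. The triglyceride lipase gene Pnpla2 and Pafah1b3 led by level, at 0.17 and -0.12, and the lysosomal phospholipase gene Pla2g15 had 77 and 29 counts at -0.91 (-1.58 to -0.28).

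The P450 branch held 2 of the higher genes. Cyp2c66 had 14 and 53 counts, a log2 ratio of 2.42 (1.55 to 3.38), and belongs to a gene cluster of close relatives in which reads may be shared. Cyp4a10, a fatty acid omega-hydroxylase gene, had 0 and 85 counts, 40.01-fold higher when its fed count is set to the floor of 3 counts. The counting interval of its log2 ratio begins at 4.99, below the 5.32 that this floor gives, and its reads, too, may be shared with close relatives. The epoxide hydrolase genes Ephx2 and Ephx1 led by mean length-scaled level, at 0.95 (0.73 to 1.17) and 0.06, although Cyp2j6 was above Ephx2 in the fed library (64.0 and 59.3 TPM). The lipoxygenase branch was near the limit of counting: Alox5, Alox5ap, Ltc4s, Alox12 and Alox15 had at most 6 counts in a library. Only Lta4h (1697 and 1121 counts, -0.10) and Dpep1 (41 and 57 counts, 0.97) of its 16 listed genes were measured. Of the regulators of phospholipase activity, 0 of 7 measured genes passed 2-fold, with S100a10 and Mapk3 the highest by length-scaled level at 0.34 and 0.09, and the annexin gene Anxa1 had 2 and 0 counts.

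**Figure D5:**
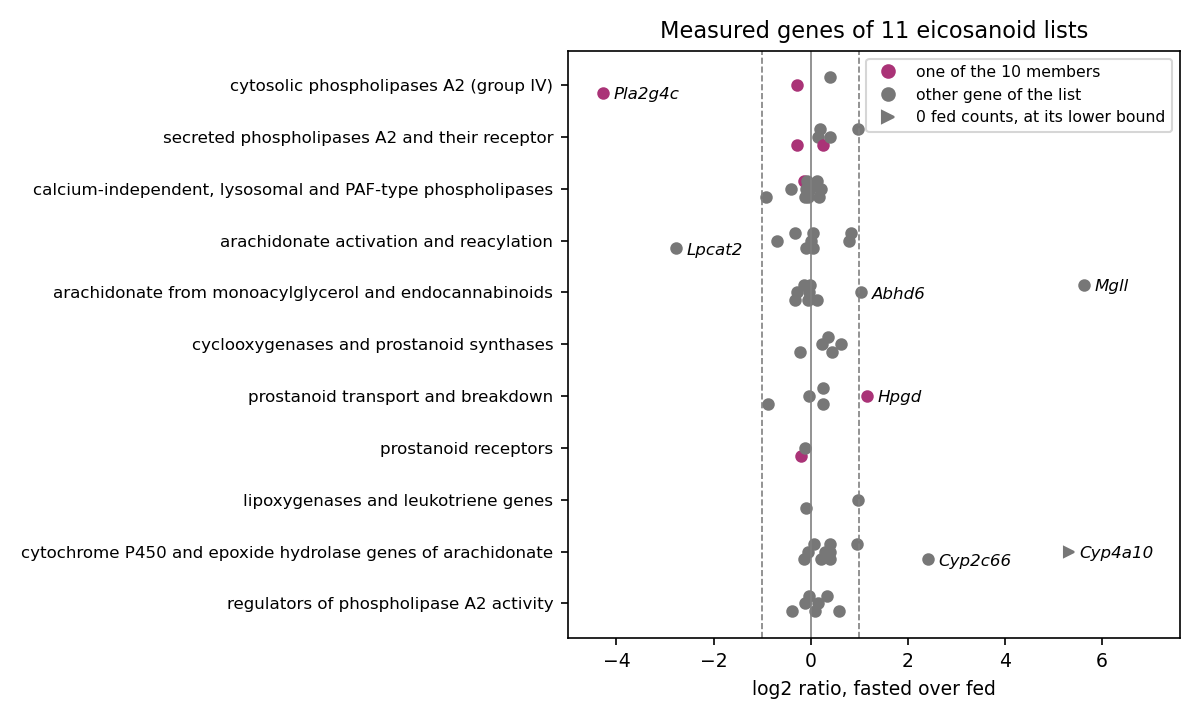
Log2 ratio, fasted over fed, of the measured genes in 11 lists of arachidonate and eicosanoid genes, with members coloured and other genes grey. Cyp4a10, without a fed count, is drawn as a triangle at 5.32, the value that a floor of 3 fed counts gives. The key calls this its lower bound, but its counting interval begins at 4.99. Mgll at 5.64, Cyp4a10 and Cyp2c66 at 2.42 lie to the right, Pla2g4c at -4.27 and Lpcat2 at -2.78 to the left, and Hpgd and Abhd6 just past the dashed line of 2-fold.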

How the data were processed

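Per the files, the deposited counts are whole numbers of reads for each Ensembl gene, not normalised by the authors. FastQC, STAR, HTSeq and DESeq, and the builds GRCm38 and mm10, are named without versions or roles, per the submitters' processing notes. Sources used here name neither the annotation nor a strand setting, and reads where genes on opposite strands overlap cannot be separated. A deposited table of normalised values holds a signal equal to the counts over 1 factor per library (1.19 fed, 0.842 fasted): 100% of values matched within 0.0051, so whole reads were recovered. With 1 library a group no count test could be run on either. Of 45706 gene IDs, 45143 matched GENCODE M21 (GRCm38), which gave positions and exon lengths; TPM used union exon lengths.

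The members and lists were chosen with earlier results of these data known. The text names the members, each called gene and the 2 highest by mean TPM in each pathway list. It also names the 2 nearest measured genes on each side of a called member. The 5 protein-coding genes nearest to Pla2g4c in log2 ratio, without Gm and Rik symbols, are named too. Further genes named were chosen after their values were seen. From both the tuft cell and the posterior gene lists, 1 gene was left out after its values were seen and is not reported here, so their counts and sums cover the other genes. Alternatives were scaling by total counts, by upper quartiles or by TMM (edgeR 4.0.16), ratios of the deposited normalised values, a correction for exon length (running median over 501 genes), other low-count filters and other fold thresholds. Python 3.11.15 with scipy 1.17.1 was used.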

Additional observations from a re-analysis of the deposited data

How the results depend on the processing

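The call and sign of the 7 measured members held in all 35 recomputed values, under scaling by total counts, upper quartiles or TMM, with the deposited normalised values, and with the correction for exon length. The other scalings moved a member's log2 ratio by at most 0.02 and the length correction by at most 0.20 (Pla2g2a, to -0.48); Hpgd became 1.04 and Pla2g4c -4.28. No ratio is given for Ptgs1, Ptgs2 and Ptges, which were not measured. Stricter thresholds end the Hpgd call by construction: 0 members were higher at 3-fold or with an interval bound of at least 2-fold. Of the other pathway genes, 2 were lower without the low-count filter (Lpcat2 and Ptgds, with 8 and 0 counts) and 0 at a minimum of 5 CPM, which leaves Lpcat2 out; at 1.5-fold 10 were higher and 3 lower. After length correction 3 were higher in place of 4, without Abhd6. Over all genes the calls were 302 higher with 230 lower. A 5 CPM minimum gave 176 with 111, a 1.5-fold threshold 614 with 607, a 3-fold threshold 124 with 88, and the interval bound of at least 2-fold 103 with 36. No paired analysis was possible because each group has 1 library. Depth limits the cyclooxygenase and Ptges genes, where 3 counts equal 0.429 CPM fed and 0.598 CPM fasted.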
